A study of Danio rerio with 6 samples.

Results

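The 95 solute carrier genes described here are those whose symbol in the supplementary gene table of the study starts with slc and a digit, out of 31540 genes in the count table. They fall into 32 families, and the genes slc7a3a and slc7a3b were left out by rule. The table has a sheet of all genes, a sheet of up-regulated genes and a sheet of down-regulated genes, of which the first 2 were held in part here, with 1998 rows shown of each. The up-regulated sheet names 55 of the members and the down-regulated sheet 16, and no member stands on both. The sheet of all genes names 27, of which 24 stand on no other sheet. The sheets of up- and down-regulated genes were selected by the study on the same comparison of the same libraries, so the direction of these 71 genes was fixed by the choice. Their values are a description, without a test. The rows shown of the sheet of all genes were not listed for their change. The fit tested 1004 of these rows and called 13.25% of them higher in PV and 5.98% lower, which is close to the shares over all genes given below. Its 27 members can therefore be read from the test.

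The solute carriers are membrane proteins that move amino acids, sugars, ions, metals, vitamins, lipids and nucleotides across the plasma membrane and the membranes of organelles. They are numbered by family, and the members of a family share sequence and often the kind of substrate. Most are secondary transporters that use a gradient of sodium, protons or another solute, or exchangers that swap 1 substrate for another. In an ovarian follicle both the oocyte and the follicle cells around it express them, and the oocyte can receive small molecules from the follicle cells through gap junctions.

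RNA came from follicles of wild type zebrafish of the AB strain, in 3 libraries of primary growth (PG) follicles and 3 of pre-vitellogenic (PV) follicles, which GEO's labels call pre-vitellogenin. In the methods of the study, 3 groups of 3 females each were used, and both PG and PV follicles were taken from the pooled ovaries of each group and separated by sieving, PG follicles being the smaller. The 3 libraries of a stage therefore come from different fish, and each group of fish gave both stages. The sources used here do not say whether the replicate number in the labels marks the group of fish. The ages of the fish are not given in the sources used here. No treatment or mutation was involved, so that both groups share the genotype and differ by follicle stage. Whole follicles were sequenced, with oocyte, follicle cells and adhering tissue together, so a larger share of a cell type and more RNA per cell cannot be told apart.

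The libraries held between 14492086 and 36603108 counts, the fewest in PG replicate 3. Levels are given as normalized counts, which are counts scaled by the TMM method of edgeR to the mean library, and compare libraries but not genes, since they are not divided by transcript length. Changes are log2 fold changes of PV over PG in edgeR's quasi-likelihood model over the 15899 genes that passed its filter on low counts. Calling a gene took both an adjusted p no larger than 0.05 and a change of at least 1 in size. By these thresholds 13.2% of all tested genes were called higher in PV, 5.97% were called lower and 19.2% were called in either direction. The median change over all genes was 0.03. Cell type markers moved between the stages. The 6 matched granulosa cell markers summed to between 81.1 and 138 normalized counts in PG libraries and to between 1407 and 1692 in PV libraries, and none of them was at 0 throughout a stage. The 8 matched oocyte markers summed to between 185420 and 195581 in PG and between 80879 and 85747 in PV. Of these, zp3b, buc and zar1 were called lower. The other 5 were not called, with changes of -0.998 for dnd1, -0.69 for figla, -0.16 for bmp15, -0.05 for gdf9 and 0.29 for ddx4. The sums of 4 endothelial markers were 189 to 315 in PG and 425 to 525 in PV, those of 4 stromal markers 321 to 499 and 861 to 947, those of 4 leukocyte markers 153 to 263 and 262 to 289, and those of 4 red blood cell markers 650.0 to 887 and 168 to 438. The 4 theca cell markers summed to between 5567 and 5835 in PG and between 3288 and 3515 in PV, a sum made almost wholly of cyp17a1, while cyp11a2 and hsd3b1 were called higher. The part of these markers in the changes below was not tested.

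Of the 95 members, 74 passed the filter and were tested. The 21 that did not pass comprise 7 of the up-regulated sheet, 2 of the down-regulated sheet and 12 of the 24 named by the sheet of all genes alone. None of these 21 had more than 41 counts in a library. SLC5A7, a choline transporter gene, and slc6a18 had no count in any library. All 48 tested members of the up-regulated sheet were called higher and all 14 of the down-regulated sheet lower, beside the 13.2% and 5.97% of all genes given above, and nothing can be read from these counts because the sheets were selected on this contrast. Their median changes were 1.92 and -1.59. In each of these 48 and 14 genes the ranges of the stages did not overlap, with PV the higher in the former and the lower in the latter. Among all tested genes 36.4% had PV values that were all higher, 32.9% had PV values that were all lower, and 69.3% had either.

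The choice of the sheets sets a threshold near a change of 1. Just inside it stood slc38a10 at 1.13 and SLC29A2 (ENSDARG00000099078), by that name an equilibrative nucleoside transporter gene, at 1.14 among the higher genes, and slc25a38a at -1.05 and slc12a10.1 at -1.12 among the lower ones. The reference has no name for this ID and gives SLC29A2 to another gene, ENSDARG00000001767, which is no member. By reference name 3 genes of family 29 were tested, and none was called in either direction, beside 19.2% of all genes. Without PV replicate 2 the change was 0.94 for SLC29A2 and -0.95 for slc25a38a, outside the threshold. Just outside stood slc35e3 at 0.96 and slc35a5 at 0.67, both from the sheet of all genes alone.

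Amino acid and neurotransmitter carriers were the largest group, with 26 members in families 1, 3, 6, 7, 18, 36, 38 and 43. Of these, 20 were tested, 17 of them called higher and 3 lower, which the sheets fix, beside 13.2% and 5.97% of all genes. Family 7 includes exchangers, though not all its members, that work as pairs of a light chain and a heavy chain of family 3. The light chain carries the substrate, and the heavy chain brings the pair to the plasma membrane. The member that the study names SLC3A2 (ENSDARG00000055791) is zgc:158423 in the reference table. It had 11.9, 8.42 and 0 normalized counts in the PG libraries and 194, 198 and 155 in the PV libraries. These PV values exceed every PG value, and the change was 4.44 (standard error 0.38). The reference gives the name SLC3A2 to another gene, ENSDARG00000037012, which is no member. It had 165, 163 and 155 in PG and 234, 189 and 237 in PV and a change of 0.45 (standard error 0.13) with an adjusted p of 0.00996 in edgeR's quasi-likelihood test, under the fold threshold. Which of them serves as the heavy chain in these follicles cannot be read from the counts.

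The light chain gene slc7a11 (ENSDARG00000071384) encodes the exchanger that takes up cystine for glutamate. It had 17.2, 14.96 and 0 normalized counts in the PG libraries and 333, 291 and 214 in the PV libraries, a change of 4.42 (standard error 0.38), and the mean level was 26.1-fold higher in PV. For slc7a5 (ENSDARG00000099265), which carries large neutral amino acids with the same heavy chain in mammals, the values were 9.69, 1.87 and 0 in PG and 72.7, 67.4 and 62.3 in PV, a change of 3.77 (standard error 0.57). All 3 genes were listed at 0 in PG replicate 3, the library of fewest counts, and were low in the other PG libraries. The counts were derived from the coverage of assembled transcripts, so a value of 0 may be a missed assembly as well as an absent transcript. The gene slc7a10a (ENSDARG00000008100), which encodes a carrier of small neutral amino acids, had 32.1, 27.1 and 26.4 in PG and 156, 144 and 114 in PV and a change of 2.25 (standard error 0.21). Of slc7a14a (ENSDARG00000010816), the level was 95.4, 94.5 and 79.2 in PG and 247, 260.5 and 246 in PV, with a change of 1.46.

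The other heavy chains and partners were taken from a list of names. Of its 12 symbols 10 were matched and 7 tested. Called higher were 3, the members slc7a5, slc7a10a and slc7a11, and none was called lower, beside 13.2% and 5.97% of all genes. The up-regulated sheet names these 3, so their calls were fixed by the choice. At an unadjusted p under 0.05, 3 were higher and 1 lower, and DESeq2 called 3 higher and 1 lower. DESeq2 called slc7a10b lower, which did not pass edgeR's filter, and the down-regulated sheet that names it fixes that direction. Among all tested genes 62.5% passed the adjusted p alone, in either direction. The median change of the 7 was -0.23, against 0.03 over all genes, and with library totals as the scale it was 0.18, against 0.45. The gene that the reference names slc3a2a (ENSDARG00000036427) had 188, 178 and 145 normalized counts in the PG libraries and 115, 96.5 and 183 in the PV libraries, a change of -0.38 with an adjusted p of 0.164 in edgeR's quasi-likelihood test. The levels of its 2 stages overlapped, and with library totals as the scale the change was 0.04. The light chain gene slc7a6 had a change of -0.23, slc7a7 one of -0.63 and slc7a9 one of -1.09, and none of these passed both thresholds.

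Family 38 holds sodium-coupled carriers of neutral amino acids such as glutamine and alanine, and all 4 members were on the up-regulated sheet. The largest change of them was in slc38a4 (ENSDARG00000018149), with 39.5, 43.95 and 13.2 normalized counts in the PG libraries and 528, 484 and 439.5 in the PV libraries, 3.76 (standard error 0.22). Its neighbour slc38a2 (ENSDARG00000045886) had 231, 193 and 119 in PG and 846, 883 and 810.4 in PV, a change of 2.16 (standard error 0.16). In both genes PG replicate 3 was the lowest library. A single protein-coding gene lies between them in the RefSeq annotation of GRCz12tu, another assembly than the one the counts use. For slc38a5b (ENSDARG00000014587), the values were 389, 375 and 309 in PG and 915, 870.1 and 846 in PV, with a change of 1.27. The remaining member slc38a10 (ENSDARG00000077081) had 781, 703 and 892 in PG and 1564, 1788 and 1814 in PV and a change of 1.13. By reference name, family 38 has 13 genes in the count table, of which 10 were tested and 4, the members that the up-regulated sheet names, were called higher and none lower, beside 13.2% and 5.97% of all genes. At an unadjusted p under 0.05 edgeR gave 6 higher and 0 lower and DESeq2 called 5 higher and 0 lower. Of all tested genes 62.5% passed the adjusted p alone, in either direction.

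Of the other carriers of neutral amino acids, slc36a1 (ENSDARG00000075618), whose mammalian protein moves small amino acids with protons out of lysosomes, had 67.9, 54.2 and 43.4 in PG and 196, 177 and 176 in PV normalized counts and a change of 1.68 (standard error 0.18). The facilitative carrier slc43a2a (ENSDARG00000036848) had 84.3, 81.4 and 98.1 in PG and 267, 292 and 266 in PV, with 1.66 (standard error 0.13). The ranges of the 2 stages were far apart in both genes, which the up-regulated sheet names.

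Family 6 couples the uptake of neurotransmitters and amino acids to sodium and chloride, and 9 members belong to it. The GABA transporter gene slc6a1b (ENSDARG00000039647) had no count in any PG library and 42.1, 51.6 and 41.2 normalized counts in the PV libraries. Against a floor of 3 counts in each PG library, its level was at least 12.6-fold higher in PV. Next to it in RefSeq's GRCz12tu annotation lies slc6a11b, another GABA transporter gene, which the sheet of all genes names and which had 3 counts in all, in PG replicate 2. The serotonin transporter gene slc6a4a (ENSDARG00000061165) had 23.9, 13.1 and 7.55 normalized counts in the PG libraries and 224, 201 and 153 in the PV libraries, a change of 3.54 (standard error 0.30). The dopamine transporter gene slc6a3 (ENSDARG00000004219) went the other way, with 70.8, 76.7 and 108 in PG and 27.2, 21.2 and 20.1 in PV and a change of -1.85 (standard error 0.28). The plasma membrane transporters of serotonin and dopamine thus differed in direction, as the sheets that named them fix, and neither gene's PG values overlapped its PV values. For the proline transporter gene SLC6A7 (ENSDARG00000030006) the change was 1.61. The taurine transporter gene slc6a6a had no PG count and 8 to 13 counts in the PV libraries, which is at least 2.799-fold higher, and the glycine transporter gene slc6a9 had 2.24, 7.48 and 0 in PG and 33.8, 18.5 and 5.49 in PV with overlapping ranges. Neither passed the filter. The noradrenaline transporter gene slc6a2 of the sheet of all genes had at most 9 counts in a library.

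Family 1 holds the high-affinity glutamate transporters, and 2 of its 4 members stand on each of the up- and down-regulated sheets. The gene slc1a3a (ENSDARG00000104431), a glial glutamate transporter in mammals, had 15.7, 17.8 and 18.9 normalized counts in the PG libraries and 159, 151 and 127 in the PV libraries, a change of 3.08 (standard error 0.22). The gene slc1a8a (ENSDARG00000104204) had 55.9, 58.9 and 49.05 in PG and 21.5, 17.2 and 15.6 in PV, a change of -1.59 (standard error 0.30). The vesicular acetylcholine transporter gene slc18a3a (ENSDARG00000006356) had between 2 and 4 counts in PG libraries and between 17 and 31 in PV libraries, with a change of 2.76 (standard error 0.61).

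**Figure D1:**
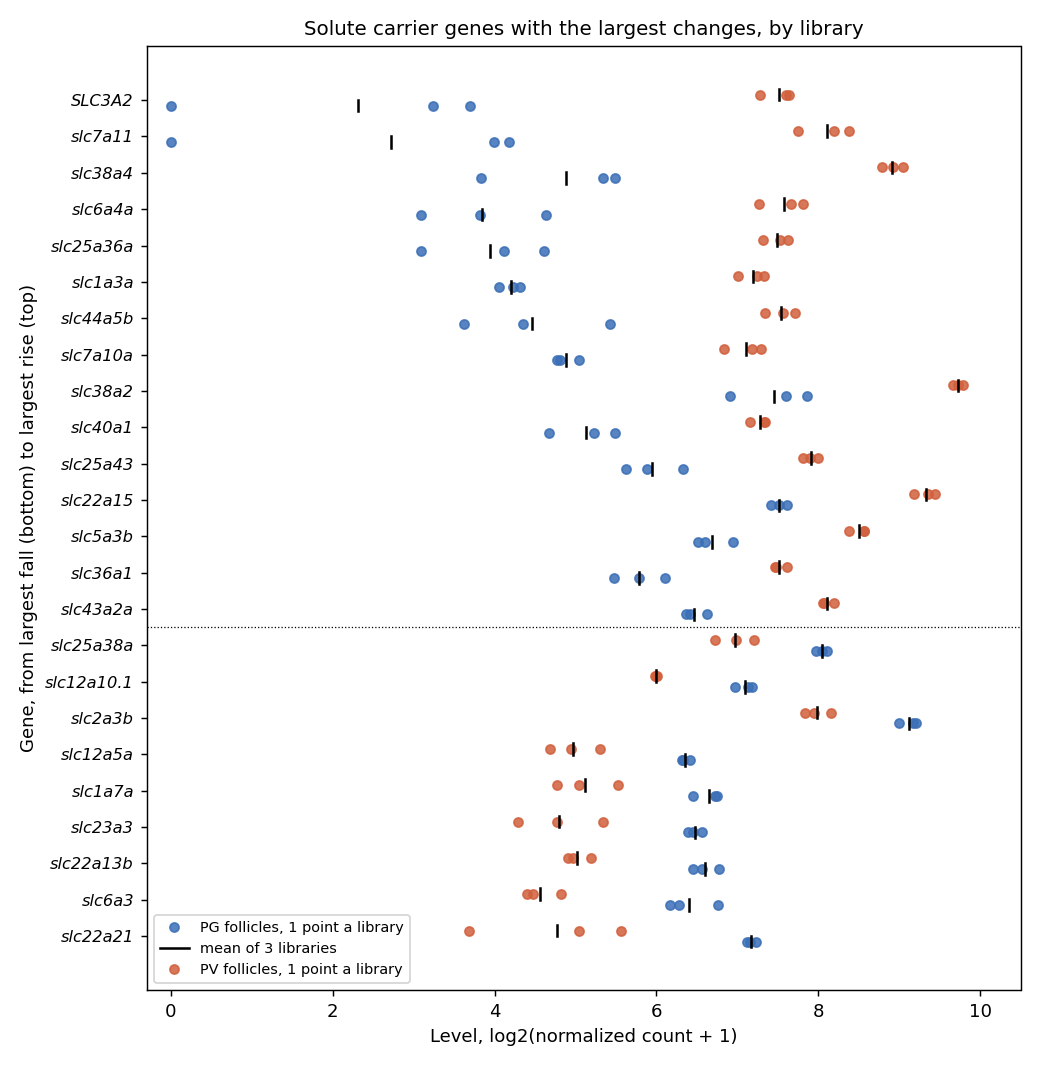
The level of 24 solute carrier genes in each library as log2(normalized count + 1), with 1 point a library, PG in blue and PV in orange, and black bars at the mean of the 3 log values of a stage. The dotted line parts the genes with the largest falls, below, from those with the largest rises, above. No gene shown has PG and PV points that overlap, and SLC3A2 and slc7a11 have a PG point at 0.

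The sugar transporters of family 2, which move glucose and related sugars down their gradient, also divided. The gene slc2a3b (ENSDARG00000037861), of which the mammalian counterpart is the high-affinity glucose transporter of neurons, had 509, 591 and 575 normalized counts in the PG libraries and 246, 227 and 285 in the PV libraries, a change of -1.13 (standard error 0.10). By contrast slc2a12 (ENSDARG00000036865) had 114, 104 and 115 in PG and 269, 247 and 300.4 in PV, a change of 1.301, and slc2a1b (ENSDARG00000007412), a copy of the widespread glucose transporter gene, had 28.3, 36.5 and 15.1 in PG and 89.99, 71.4 and 80.6 in PV, a change of 1.53 (standard error 0.30). No PG value of these 3 genes lay within their PV range, beside 69.3% of all tested genes without overlap in either direction. The up- and down-regulated sheets name all 3. The remaining member slc2a6 had at most 25 counts in a library and was not tested.

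In family 5 of sodium-coupled transporters, slc5a3b (ENSDARG00000077812), which takes up the osmolyte myo-inositol, had 96.2, 123 and 90.5 normalized counts in the PG libraries and 379, 377 and 333 in the PV libraries, a change of 1.798 (standard error 0.13). The monocarboxylate transporter gene slc5a12 (ENSDARG00000005004) was low in both stages, with 43.99, 17.8 and 22.6 in PG and 7.43, 0 and 5.49 in PV and a change of -2.58 (standard error 0.70). Without PG replicate 1 its change was -2.08 and it was not called. The other 4 members, SLC5A7, slc5a3a, slc5a8 and slc5a9, had at most 10 counts in a library. Of family 45, slc45a3 (ENSDARG00000075975) had 65.6, 74.8 and 66.03 in PG and 30.5, 17.2 and 28.4 in PV, a change of -1.41. Over the 6 tested members of families 2, 5 and 45, 3 were called higher and 3 lower, as the sheets fix, beside 13.2% and 5.97% of all genes. By reference name 9 genes of family 2 were tested, of which 2 were called higher and 1 lower. Of family 5, 7 were tested, with 1 higher and 1 lower, and of family 45, 4 were tested, with 1 higher and 1 lower.

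The families of inorganic ion carriers held 16 members, of which 11 were tested. Of these, 7 were called higher and 2 lower, beside 13.2% and 5.97% of all genes. These 9 calls are of genes that the up- and down-regulated sheets name, and SLC9A3R2, described below as no carrier, is among them. The largest change was in SLC26A6 (ENSDARG00000058738), an anion exchanger gene that the reference names slc26a6l2. It stands on the sheet of all genes as well as on the up-regulated sheet. The PG libraries held 2 counts of it in all, both in replicate 1, and the PV libraries had 69.3, 40.99 and 48.5 normalized counts. From the summed counts the ratio of PV to PG was 80.7, with an exact 95% interval for counting error of 22.003 to 672. The sulfate transporter gene slc26a2 (ENSDARG00000011618) had 43.99, 44.9 and 49.05 in PG and 138, 153 and 136 in PV, a change of 1.64 (standard error 0.17). The third gene of the family, slc26a5, whose mammalian protein prestin is the motor of outer hair cells, had 646, 661 and 566 in PG and 888, 877 and 939 in PV, a change of 0.52 (standard error 0.07) with an adjusted p of 0.000121 in edgeR's quasi-likelihood test, under the fold threshold. The adjusted p alone was passed by 62.5% of all tested genes.

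Of the sodium-calcium exchangers of families 8 and 24, the tested members are slc8a2a and slc24a4a, both from the up-regulated sheet. By reference name family 8 has 3 tested genes, of which 1 was called higher, beside 13.2% of all genes. The better covered member was slc24a4a (ENSDARG00000015425), a potassium-dependent exchanger gene, with 448, 363 and 317 normalized counts in the PG libraries and 885, 1034 and 853 in the PV libraries and a change of 1.27 (standard error 0.12). Of slc24a2, the PG libraries held no count and the PV libraries 4 to 10, at least 2.04-fold higher. The gene slc8a4a of the sheet of all genes had at most 4 counts in a library. The sodium bicarbonate cotransporter gene slc4a4b (ENSDARG00000044808) had 11.2, 24.3 and 18.9 in PG and 35.5, 66.1 and 56.8 in PV, a change of 1.55 (standard error 0.40), and the anion exchanger gene slc4a1b at most 21 counts in any library of PG follicles and 6 in any of PV follicles. The sodium-proton exchanger gene slc9a5 (ENSDARG00000078560) had a change of 1.47 (standard error 0.47), and it was not called without PG replicate 1, PV replicate 1 or PV replicate 2, nor with the replicate number as a block. SLC9A3R2 (ENSDARG00000074231) is a member by its symbol only, since its product is a scaffold that binds the exchanger of that family and not a carrier. It had 2.98, 7.48 and 0 in PG and 25.6, 27.8 and 22.9 in PV, a change of 2.64 (standard error 0.64).

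All 3 members of family 12, the cation-chloride cotransporters, were tested. None was called higher and 2 were called lower, beside 13.2% and 5.97% of all genes. Those 2 are the ones that the down-regulated sheet names. By reference name 9 genes of the family were tested, with 0 called higher and 2 lower, and so few genes give no reading of the family. The potassium-chloride cotransporter gene slc12a5a (ENSDARG00000075815) had 84.3, 78.6 and 79.2 normalized counts in the PG libraries and 29.7, 38.3 and 24.7 in the PV libraries, a change of -1.401 (standard error 0.25). The gene slc12a10.1 (ENSDARG00000055313) had 139, 144 and 125 in PG and 62.7, 63.5 and 62.3 in PV, a change of -1.12 (standard error 0.16), and its 3 PV libraries were close to each other. The sodium-potassium-chloride cotransporter gene slc12a2 (ENSDARG00000086870), from the sheet of all genes, had 544, 477 and 426 in PG and 413, 467 and 435 in PV, which overlapped, a change of -0.16 (standard error 0.10) with an adjusted p of 0.189 in edgeR's quasi-likelihood test, and the change was 0.26 with library totals as the scale. The reference has no name for this ID and gives slc12a2 to another gene, ENSDARG00000104573, which is no member.

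Family 25, the carriers of the inner mitochondrial membrane, was the largest family with 14 members. Of these, 8 were on the up-regulated sheet, 1 on the down-regulated sheet and 6 on the sheet of all genes, with slc25a48 counted under both the first and the last. By reference name 45 genes of the family were tested, of which 7 were called higher and 1 lower, which is 15.56% and 2.22% beside 13.2% and 5.97% of all genes. The largest change was in slc25a36a (ENSDARG00000038731), a carrier of pyrimidine nucleotides in mammals, with 16.4, 23.4 and 7.55 normalized counts in the PG libraries and 159, 197 and 184 in the PV libraries, 3.39 (standard error 0.27). The gene slc25a43 (ENSDARG00000102048) had 48.5, 57.98 and 79.2 in PG and 239, 254 and 224 in PV, a change of 2.01 (standard error 0.18). Smaller changes were seen in slc25a18 at 1.42, a glutamate carrier gene, and in slc25a23a at 1.17, a carrier of adenine nucleotides and phosphate. The gene slc25a38a (ENSDARG00000059805), a glycine carrier that serves heme synthesis, had 274, 249.7 and 264 in PG and 146, 104 and 125 in PV, a change of -1.05 (standard error 0.14).

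Among mitochondrial carrier genes with few counts, SLC25A22 and slc25a15a lost their calls when single libraries were left out. So did slc25a48, which is given with the sheet of all genes below. The glutamate carrier gene SLC25A22 (ENSDARG00000020718) had 13 PG counts, all in replicate 1, and its change of 2.36 (standard error 0.90) lost its call in the fits that left out any other library, with changes from 1.79 without PG replicate 2 to 2.64 without PV replicate 3. Without PG replicate 1 no PG count remained, and it was called with a fitted change of 7.32, which depends on the prior count. With the replicate number as a block it was not called. For the ornithine carrier gene slc25a15a (ENSDARG00000063539) the change was 2.19 (standard error 0.59), and 1.59 without PV replicate 1, where it was not called. The ADP/ATP carrier gene slc25a6 had no PG count and 5 to 9 counts in the PV libraries.

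Of the mitochondrial carriers on the sheet of all genes, 1 was called, beside 19.2% of all genes in either direction. The most highly counted, slc25a39 (ENSDARG00000007449), which imports glutathione in mammals, had 3678, 3896 and 3822 normalized counts in the PG libraries and 4218, 4115 and 3874 in the PV libraries, a change of 0.099 (standard error 0.05) with an adjusted p of 0.086 in edgeR's quasi-likelihood test. The S-adenosylmethionine carrier gene slc25a26 had 381, 398 and 299.9 in PG and 357, 377 and 356 in PV, and slc25a47a had 47.7, 58.9 and 39.6 in PG and 28.9, 40.99 and 26.6 in PV with an adjusted p of 0.0927 in the same edgeR test. Both overlapped between the stages. The aspartate-glutamate carrier gene slc25a13 had at most 12 counts in a library. The gene slc25a48 (ENSDARG00000021250), which is also on the up-regulated sheet, had 7.46, 20.6 and 11.3 in PG and 37.2, 31.7 and 35.7 in PV, a change of 1.41 (standard error 0.45) with an adjusted p of 0.0194 in the edgeR test. The adjusted p rose to 0.0668 without PG replicate 1, 0.0631 without PV replicate 1 and 0.0567 without PV replicate 3.

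The metal and heme carriers held genes of high counts. The zinc transporter gene slc30a9 (ENSDARG00000057272) had 559, 588 and 666 normalized counts in the PG libraries and 1763, 1789 and 1755 in the PV libraries, a change of 1.56 (standard error 0.07). The copper importer gene slc31a1 (ENSDARG00000013961) had 427, 430.2 and 379 in PG and 963, 1173 and 941 in PV, with 1.302 (standard error 0.10), and the iron exporter ferroportin, slc40a1 (ENSDARG00000000241), had 43.99, 36.5 and 24.5 in PG and 141, 161 and 160.2 in PV, with 2.07 (standard error 0.21). All PV values of these genes lay above all PG values, as in 36.4% of all tested genes. The up-regulated sheet names these genes, so their direction was fixed by the choice. By reference name 8 genes of family 30 were tested, of which 1 was called higher and 1 lower. Of family 39, 8 were tested, with 0 called higher and 0 lower, beside 13.2% and 5.97% of all genes. The zinc importer gene slc39a6 (ENSDARG00000068143), from the sheet of all genes, had 3834, 3763 and 3789.9 in PG and 2544, 2454 and 2469 in PV. Its change of -0.61 (standard error 0.04) had an adjusted p of 8.21e-07 in edgeR's quasi-likelihood test, without reaching the fold threshold, and with library totals as the scale it was -0.19. The heme transporter gene slc48a1b had 1832, 1784 and 1713 in PG and 1694, 1548 and 1575 in PV, a change of -0.15 with an adjusted p of 0.0488 in the same edgeR test, and with each library scaled by its total the change was 0.27.

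Family 35 includes nucleotide sugar carriers, which bring activated sugars into the endoplasmic reticulum and the Golgi apparatus for the synthesis of glycans. Its members were grouped here by symbol, which does not show that each carries such a sugar. All 5 members were tested, of which 3 stand on the up-regulated sheet. By reference name 24 genes of the family were tested and 3 called higher, which is 12.5% beside 13.2% of all genes. The gene slc35d1a (ENSDARG00000011973), whose mammalian counterpart supplies the synthesis of chondroitin sulfate, had 279, 227 and 285 normalized counts in the PG libraries and 648, 775 and 727 in the PV libraries, 1.45 (standard error 0.10). The gene slc35b4 (ENSDARG00000071087), a carrier of UDP-xylose and UDP-N-acetylglucosamine in mammals, had 173, 162 and 172 in PG and 437, 439 and 359 in PV. Its change was 1.28 (standard error 0.11) with an adjusted p of 4.22e-06 in edgeR's quasi-likelihood test, and it stands on the sheet of all genes as well as on the up-regulated sheet. Of the genes under the threshold, slc35e3 had 237, 200.1 and 172 in PG and 428, 423 and 357 in PV, and its change of 0.96 passed the threshold without PG replicate 1, at 1.095, and without PV replicate 3, at 1.04. The gene slc35a5 had 405, 416 and 445 in PG and 671, 696 and 642 in PV, a change of 0.67. The adjusted p was 9.41e-05 for slc35e3 and 1.74e-05 for slc35a5 in edgeR's quasi-likelihood test. With library totals as the scale both were called, slc35e3 at 1.38 and slc35a5 at 1.09. The sulfate transporter slc26a2 named above supplies the same synthesis of chondroitin sulfate with sulfate in mammals. SLC35G1 (ENSDARG00000063268) had 6.71, 3.74 and 0 in PG and 30.5, 51.6 and 30.2 in PV, with a change of 3.11 (standard error 0.62).

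Family 22, which carries organic cations, anions and carnitine, held 1 gene called higher and 3 called lower, beside 13.2% and 5.97% of all genes. The up- and down-regulated sheets that name them fix these directions. The gene slc22a15 (ENSDARG00000055445) had 169, 181 and 194 normalized counts in the PG libraries and 693, 655 and 581 in the PV libraries, a change of 1.84 (standard error 0.10). The gene slc22a21 (ENSDARG00000094112) had 138, 149.6 and 141 in PG and 46.2, 11.9 and 32.05 in PV, a change of -2.18 (standard error 0.33), with PV replicate 2 the lowest. Its neighbour in RefSeq's GRCz12tu annotation, slc22a4, had 4 counts in all, in PG replicate 1. The gene slc23a3 (ENSDARG00000088891) of the family of ascorbate transporters had 93.95, 83.2 and 86.8 in PG and 26.4, 18.5 and 39.4 in PV, a change of -1.62 (standard error 0.28). The organic solute transporter gene slc51a, from the sheet of all genes, had 280.4, 288 and 245 in PG and 364, 405 and 366 in PV, a change of 0.47 with an adjusted p of 0.00173 in edgeR's quasi-likelihood test. The multidrug exporter gene slc47a2 had at most 3 counts in a library.

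Among carriers of lipids and their building blocks, the choline transporter-like gene slc44a5b (ENSDARG00000057419) had 19.4, 42.1 and 11.3 normalized counts in the PG libraries and 209, 188 and 161 in the PV libraries, a change of 2.84 (standard error 0.32). The related slc44a2 (ENSDARG00000037059) had 103, 84.2 and 67.9 in PG and 218, 213 and 190.5 in PV, a change of 1.25. In family 27, whose proteins take up fatty acids and activate them, slc27a4 (ENSDARG00000017047) had 87.99, 74.8 and 60.4 in PG and 167, 201 and 182 in PV, a change of 1.26 (standard error 0.17). The PG counts of slc27a1b (ENSDARG00000104949) were all in replicate 1, and its change was 3.27 (standard error 0.80), or 8.14 without that library, which leaves no PG count, while slc27a2a (ENSDARG00000036237) had 56.7, 70.1 and 67.9 in PG and 33.02, 9.26 and 19.2 in PV, a change of -1.59 (standard error 0.39). In family 16 of monocarboxylate transporters, slc16a5a (ENSDARG00000030472) had 17.9, 5.61 and 3.77 in PG and 65.2, 78.02 and 59.5 in PV, a change of 2.700 (standard error 0.45), and slc16a4 (ENSDARG00000042807) one of 2.69 (standard error 0.72). The gene slc16a9b of the sheet of all genes had 20.1, 3.74 and 0 in PG and 12.4, 40.99 and 12.8 in PV, with overlap, a change of 1.18 (standard error 0.85) and an adjusted p of 0.251 in edgeR's quasi-likelihood test. Without PG replicate 1 its change was 3.11 with an adjusted p of 0.0306 in the same edgeR test, which is a call, and without PV replicate 2 it was 0.47. The PG libraries held 2 counts of slc16a12a and the PV libraries 4 to 10.

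**Figure D2:**
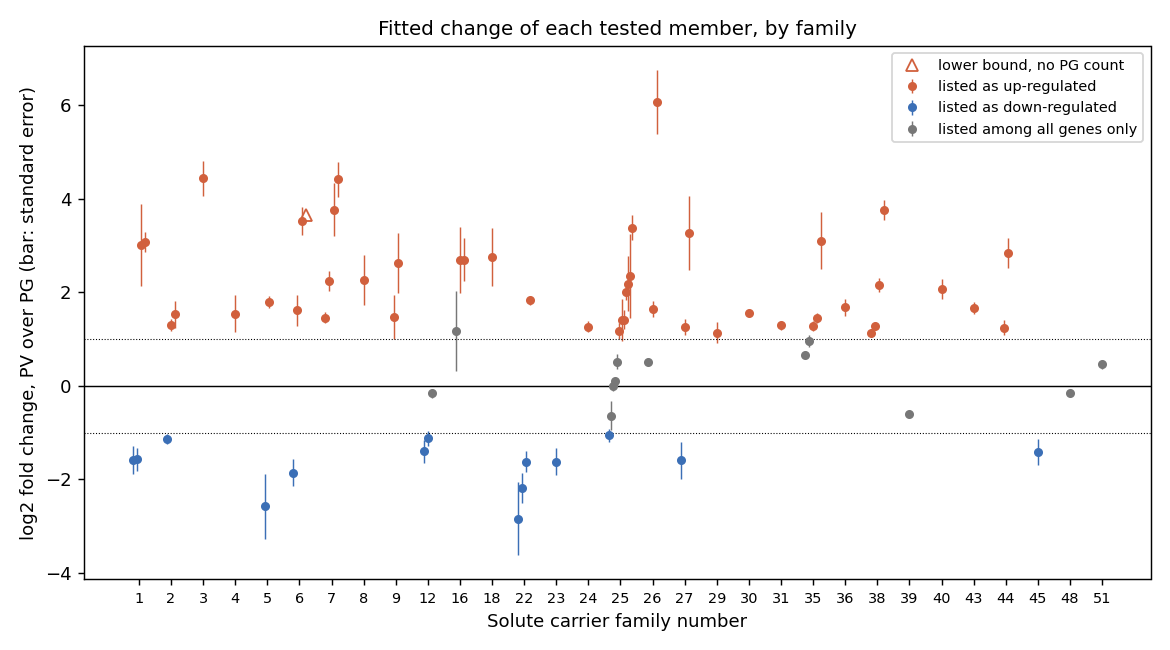
The fitted log2 fold change of PV over PG with its standard error for the 74 tested members, placed by family number and coloured by the sheet that names them, with dotted lines at -1 and 1. The triangle is the lower bound of 3.66 for slc6a1b, which had no PG count. The orange and blue points lie beyond the dotted lines because the sheets were selected so, and the grey points of the sheet of all genes lie between -0.64 and 1.18.

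Both copies of 6 duplicated genes were members, and the level of a copy is compared here between stages and not with its twin. In 2 pairs the sheets place the copies in opposite directions. Of the glutamate transporter pair of family 1, slc1a7a (ENSDARG00000034940) had 105, 107 and 86.8 normalized counts in the PG libraries and 26.4, 44.96 and 32.05 in the PV libraries, a change of -1.57 (standard error 0.25). Its twin slc1a7b (ENSDARG00000026248) had 4 PG counts, all in replicate 1, and 12.4, 11.9 and 10.1 normalized counts in PV, a change of 3.02 (standard error 0.87), or 6.43 without that library, which leaves no PG count. In the pair of small neutral amino acid carriers, the values of slc7a10a given above were higher in PV. The copy slc7a10b (ENSDARG00000051730) had 7.46, 14.03 and 5.66 normalized counts in PG and no count in any PV library, so that its level was at least 2.95-fold lower in PV by the floor of 3 counts a library. It did not pass the filter.

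In the 4 other pairs no copies were listed in opposite directions. The sodium-calcium exchanger gene slc8a2a (ENSDARG00000008912) had 5.96, 2.81 and 3.77 in PG and 20.6, 26.4 and 17.4 in PV, a change of 2.27 (standard error 0.53), and slc8a2b had 0, 2.81 and 3.77 in PG and 23.1, 7.93 and 13.7 in PV, too few to be tested. Of slc24a4b, the PG libraries held 4 counts, all in replicate 1, and the PV libraries 17, 11 and 4, beside the levels of slc24a4a given above. For the organic anion transporter pair, slc22a13b (ENSDARG00000059166) had 93.2, 108 and 86.8 in PG and 28.9, 35.7 and 30.2 in PV, a change of -1.62 (standard error 0.22), and slc22a13a (ENSDARG00000056551) had 19.4, 20.6 and 37.7 in PG and 3.302, 7.93 and 0 in PV, a change of -2.84 (standard error 0.78). The myo-inositol transporter copy slc5a3a had 7 counts in all, in PV replicates 2 and 3. Reads from stretches that are alike in both copies may have been divided between the copies.

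**Figure D3:**
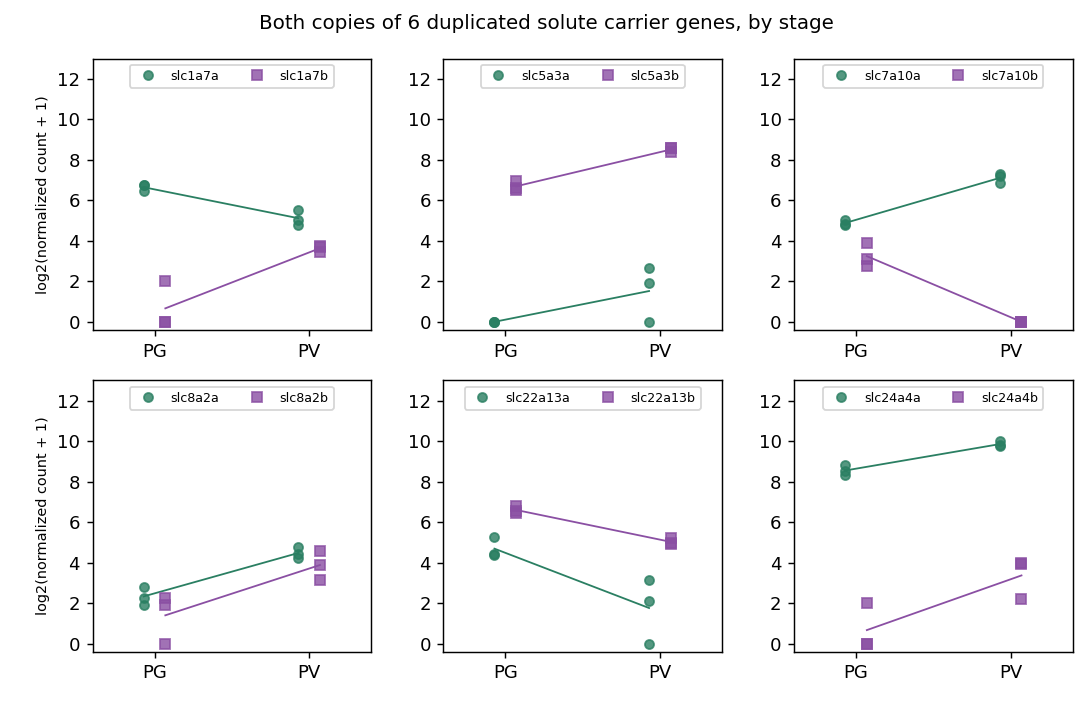
The level of both copies of 6 duplicated solute carrier genes in PG and PV follicles as log2(normalized count + 1), with 1 point a library, circles for the copy ending in a, squares for the copy ending in b, and lines between the stage means of the log values. The lines of the slc1a7 and slc7a10 copies run in opposite directions, and all 3 PV points of slc7a10b lie at 0.

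PG replicate 3, the smallest library, also had the lowest sum of granulosa cell markers, 81.1 normalized counts against 131 and 138 in the other PG libraries. Of the 48 tested members of the up-regulated sheet, 26 had their lowest PG level in this library, with ties given to the replicate of the lower number. Members at 0 both there and in another PG library are therefore not among the 26. In PG replicate 3, 10 of the 48 were at 0, compared with 1 at 0 in PG replicate 1 and 6 in PG replicate 2. Among all genes called higher, the lowest PG level was in replicate 3 for 55.2%, and among all tested genes for 42.4%, with ties given in the same way. Without this library, 49 members of the up-regulated sheet were called higher and 14 of the down-regulated sheet lower. The part of the smaller library or of the markers in these values was not tested.

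The 27 members of the sheet of all genes, which were not listed for their change, gave 15 tested genes. Of these, 3 were called higher, namely SLC26A6, slc25a48 and slc35b4, which is 20% beside 13.2% of all genes, and none was called lower beside 5.97%. With so few genes 1 call moves the share by several percentage points. At an unadjusted p under 0.05, edgeR gave 8 higher and 2 lower, and DESeq2 called 3 higher and 0 lower by both thresholds. The adjusted p alone was passed by 62.5% of all tested genes, in either direction. Without PG replicate 3, 1 was called lower. Their median change was 0.52, against 0.03 over all genes.

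A view of the whole superfamily that does not rest on the sheets was had from names. In the reference table of gene names, 424 genes of the count table have a symbol that starts with slc and a digit. These include 91 members, slc7a3a and slc7a3b, and a few genes that carry such a name without being carriers. Of the 273 tested, 51 were called higher, which is 18.68% beside 13.2% of all genes, and 18 lower, which is 6.59% beside 5.97%. Their median change was 0.16, against 0.03 over all genes. This list was taken after the members' values had been seen. With each library scaled by its total, 90 of them were called higher and 9 lower, while the median change of all genes moved to 0.45.

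Taking away the members leaves 331 of these genes, of which 201 were tested. Of these, 4 were called higher and 4 lower, beside 13.2% and 5.97% of all genes, or 7 higher when replicate numbers were blocked. The low numbers follow from the removal of genes that the up- and down-regulated sheets name. The gene that the reference names SLC6A8 (ENSDARG00000043646), a creatine transporter, had 14.2, 0 and 0 normalized counts in the PG libraries and 44.6, 62.1 and 39.4 in the PV libraries, a change of 3.01 (standard error 0.81). The folate transporter gene SLC19A1 (ENSDARG00000033993) had 4.47, 10.3 and 0 in PG and 15.7, 15.9 and 26.6 in PV, a change of 1.79 (standard error 0.69). The other 2 called higher were SLC45A4 (ENSDARG00000077326) at 1.004 and slc4a1ap at 1.001, at the edge of the threshold. Of these, slc4a1ap is on the list by its symbol only and is not a carrier gene. The genes called lower were slc47a4 at -1.25, SLC43A3 (ENSDARG00000059682) at -1.18, SLC10A3 at -1.05 and the zinc exporter gene SLC30A1 (ENSDARG00000053896) at -1.04. SLC6A8, SLC19A1 and SLC43A3 were chosen for mention after their values were seen.

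**Figure D4:**
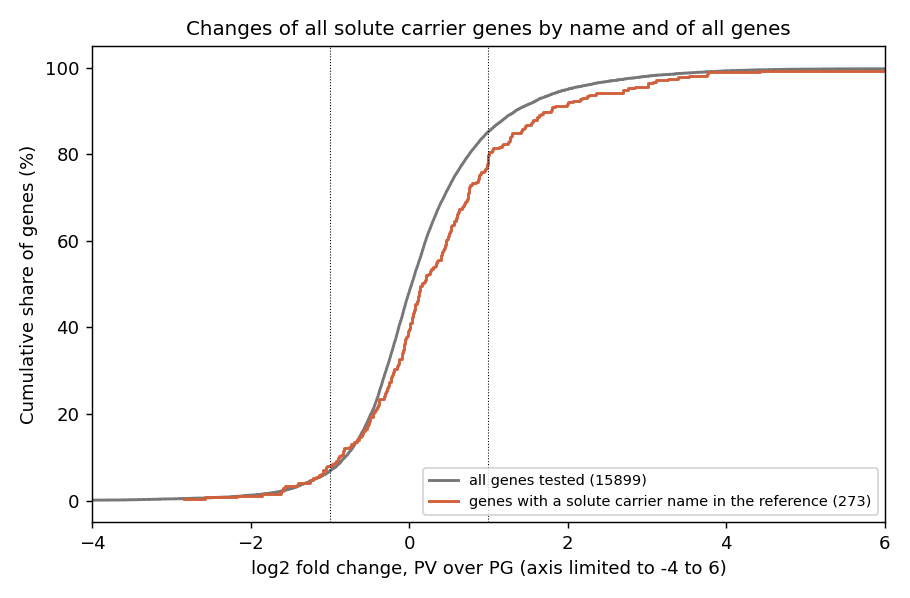
The cumulative share of genes, in percent, by log2 fold change of PV over PG, for all 15899 genes tested in grey and for the 273 tested genes with a solute carrier name in the reference table in orange, with dotted lines at -1 and 1 and the axis limited to -4 to 6. The orange curve runs below the grey curve over most of the range above 0, and the medians are 0.16 and 0.03.

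Transporters of amino acids are among the genes that the transcription factor ATF4 induces in mammals when amino acids are short. The members slc7a11, slc7a5, slc38a2 and, by a name that the reference gives to another gene, SLC3A2 have counterparts among them. A list of 16 other genes of this response was read beside them. All were tested, 4 were called higher and 2 lower, beside 13.2% and 5.97% of all genes, and their median change was -0.04, or 0.38 with library totals as the scale, where that of all genes was 0.45. Those higher were ddit3 at 2.61, atf3 at 2.102, atf5b at 1.97 and trib3 at 1.200. The gene of the factor itself, atf4a (ENSDARG00000039515), had 11746, 11511 and 12088 normalized counts in the PG libraries and 3950.4, 3724 and 4378 in the PV libraries, a change of -1.55, while its copy atf4b had one of 0.06 that was not called. The other gene called lower was ddit4, at -1.11. Not called were the asparagine synthetase gene asns at -0.71, chac1 at -0.55, psph at -0.53 and the serine synthesis genes phgdh and psat1 at -0.05 and 0.05. Nor were atf5a at -0.11, shmt2 at -0.11, cebpg at -0.02 and sesn2 at 0.05. At an unadjusted p under 0.05 edgeR gave 4 of the 16 higher and 5 lower, and DESeq2 called 4 higher and 2 lower. The adjusted p alone was passed by 62.5% of all tested genes, in either direction.

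Cystine taken up by the slc7a11 exchanger feeds the synthesis of glutathione. Of 7 glutathione genes listed, 6 were matched, and all 6 passed the filter. None of these was called in either direction, beside 19.2% of all genes, and so few genes give no reading of the list. At an unadjusted p under 0.05 edgeR gave 0 higher and 4 lower, and DESeq2 called 0. Even the adjusted p alone was passed by 62.5% of all tested genes, in either direction. The ligase subunit genes gclc and gclm had changes of -0.19 and -0.198, the synthetase gene gss one of -0.48 and the reductase gene gsr one of 0.098. The median was -0.19, against 0.03 over all genes, and with library totals as the scale it was 0.22, against 0.45.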

How the data were processed

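The authors deposited raw counts per gene, which StringTie and its prepDE script had made from reads aligned to GRCz10 with TopHat2, and a second table with a normalized signal, the counts divided by 1 size factor of DESeq2 per library. The annotation release is not given in the sources used here. The second table served only to check that it is a multiple of the first, and the fold changes and p-values of the supplementary table were not used. Members were matched by gene ID, and the members and lists were chosen with earlier results of these data known.

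Counts were filtered with filterByExpr (minimum count 10, minimum total 15), scaled by TMM and tested with edgeR's quasi-likelihood test (edgeR 4.0.16, limma 3.58.1, R 4.3.3) with stage as the factor and Benjamini-Hochberg adjustment over all 15899 tested genes. The standard error is the change divided by the square root of the F statistic. The fit was tested on simulated data. The alternatives were DESeq2 (1.42.0), other scalings, other filters, the replicate number as a block and the omission of each library. Totals ranged from 14492086 to 36603108 counts, and intervals and floors (3 counts) cover counting error only. The p-values measure the spread between 3 pools of fish a stage. Labels and methods name different library kits, and whether counting used strand is not stated.

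Named genes were the 15 largest rises and up to 10 largest falls, of which 9 qualified, among sheet-listed members with a mean of at least 50 normalized counts and no overlap, called members of the sheet of all genes, duplicates, the most counted member of each family of 3 or more, members next to the threshold and, outside the members, up to 3 called rises and 3 called falls with that mean. Others are named within their family after their values were seen. Figures were drawn with matplotlib 3.10.9, and tables were made with pandas 2.3.3, numpy 2.4.6 and scipy 1.17.1. The values of 1 member are not reported here. No sequence is printed.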

Additional observations from a re-analysis of the deposited data

How the results depend on the processing

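For the members named by the stated rule, 506 of the values compared over all settings kept their direction and call. Of the rest 9 lost a call, 4 gained one and 1 reversed. Members named within their family after their values were seen are not in these counts. Among them SLC25A22, slc9a5, slc5a12, slc25a15a and slc45a3, mostly genes of few counts, lost calls in some settings. Scaling by library totals moved the median of all genes from 0.03 to 0.45, and slc12a2 from -0.16 to 0.26. It gave 3663 genes higher and 415 lower (2105 and 949 with TMM), 48 up-regulated and 9 down-regulated sheet members, 5 higher of the sheet of all genes, 41 higher and 0 lower of the solute carriers outside the members (4 and 4 with TMM), and 90 higher and 9 lower of all solute carriers by name. The 5 down-regulated sheet members not called then, slc2a3b at -0.72, slc12a10.1 at -0.70, slc12a5a at -0.99, slc25a38a at -0.64 and slc45a3 at -0.996, kept negative changes. A minimum of 10 counts in every library gave 1223 higher and 614 lower, 25 up-regulated sheet members, 1 of the sheet of all genes and 9 carriers outside the members. It tests 13128 genes and removes members low in PG, and the cause of the last count was not tested. Without a filter 7 of the carriers outside the members were higher, and with upper quartile scaling 2. Leaving out 1 library gave 44 to 50 up-regulated and 13 to 15 down-regulated sheet members, 2 to 4 higher and 0 to 1 lower of the sheet of all genes, 3 to 9 higher and 4 to 8 lower of the carriers outside the members, and 46 to 58 higher and 17 to 21 lower of all carriers by name. With the replicate number as a block, 46 up-regulated sheet members, without slc9a5 and SLC25A22, and 14 down-regulated ones were called, and 7 carriers outside the members were higher. Libraries of the same number did not deviate together (correlations -0.0168, -0.0139 and 0.0114 over 12312 genes), and whether the numbers mark the groups of fish is not stated. Depth limits the 21 untested members, for which a lack of counts does not show absence, and with 3 libraries a stage 1 library can decide a call of a low gene.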
